A study of Mus musculus with 4 samples.

Results

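The genes described here are 40 mouse genes that take a cell from G1 into S phase and copy its DNA: G1 cyclins and their kinases, CDK inhibitors, Rb1 and the activating E2F factors, and the genes of origin licensing, origin firing, the replication fork and nucleotide supply. They were chosen by symbol from knowledge of the pathway, with earlier results of these data known. The same holds for the other gene lists below. All 40 were found among the 23997 genes of the deposited table. Each of the 40 had at least 1 FPKM (fragments scaled by transcript length and library size) in every column. RNA was sequenced from cultured endothelial cells, the lining of blood vessels, taken from the lungs of C57BL/6 mice and kept in medium with 10% serum. The 4 conditions were a control siRNA for 48 h, the control siRNA with dexamethasone (DEX, a synthetic glucocorticoid) at 100 nM for 18 h, an siRNA that targets Nr3c1, the gene of the glucocorticoid receptor (GR), for 48 h, and the GR siRNA with DEX at the same dose and time. The design states 3 replicates per condition, but the table holds 1 column per condition, so no value below has a replicate error, an SD or a p-value. The cells were cultured, the GR was lowered by an siRNA and not deleted, and no source used here gives the number of cultures or mice behind a column.

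In G1, cyclin D with CDK4 or CDK6 and then cyclin E with CDK2 phosphorylate the Rb protein, which releases E2F factors to switch on the genes of DNA replication. CDK inhibitors of the Cip/Kip and INK4 families hold this step back. The proteins Cdc6 and Cdt1 load the MCM helicase on origins before S phase, geminin (gene Gmnn) keeps Cdt1 from loading it again, and Mcm10, Cdc45 and the GINS complex start the loaded helicase. Endothelial cells of the lung are mostly quiescent in the animal and divide in culture with serum.

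The E2F recognition sequence shared by many of these genes is shown first because it splits them into sets described further on. RefSeq promoters of the GRCm38.p6 build, from 250 bases before to 50 bases after a start site, were at hand for 31 of the 40 genes, with 39 promoters in all. Each was searched on both strands for 4 E2F words, TTTCCCGC, TTTCGCGC, TTTGCCGC and TTTGGCGC, whose matches can overlap one another. In the 60-base windows below, on the strand of the gene, the capitals mark the E2F words or their reverse complements.
Mcm3, chr1:20820263-20820322, minus strand: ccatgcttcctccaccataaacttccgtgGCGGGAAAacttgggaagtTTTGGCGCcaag
Mcm5, chr8:75109332-75109391, plus strand: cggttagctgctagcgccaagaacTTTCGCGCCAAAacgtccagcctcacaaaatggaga
Mcm6, chr1:128359780-128359839, minus strand: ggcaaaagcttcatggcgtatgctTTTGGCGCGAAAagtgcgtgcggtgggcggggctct
Mcm7, chr5:138172015-138172074, minus strand: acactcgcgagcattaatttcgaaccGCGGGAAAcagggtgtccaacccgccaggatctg
Cdc6, chr11:98907987-98908046, plus strand: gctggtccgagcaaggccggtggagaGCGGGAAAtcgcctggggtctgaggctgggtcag
Rfc3, chr5:151651180-151651239, minus strand: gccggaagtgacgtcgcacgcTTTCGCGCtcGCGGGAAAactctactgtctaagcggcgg
Uhrf1, chr17:56304102-56304161, plus strand: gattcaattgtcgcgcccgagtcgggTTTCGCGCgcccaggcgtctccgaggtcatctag
At least 1 E2F word stood in 12 of the 39 promoters (30.8%), against 744 of all 32851 promoters (2.26%). The other 5 genes with a word were Cdk2, Cdt1, E2f2, E2f3 and Pola1. No E2F word stood in the 5 promoters of the CDK inhibitors Cdkn1a, Cdkn1b and Cdkn2c or in the 4 promoters of the nucleotide supply genes. A word is a match of letters and was not tested for binding. Other forms of the E2F sequence were not searched, so a promoter without a word may still hold 1.

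The targeted mRNA followed the siRNA labels: Nr3c1 stood at 14.4 FPKM with control siRNA and 14.3 with control siRNA and DEX, and at 5.45 with GR siRNA and 5.32 with GR siRNA and DEX. All 14 endothelial markers were at 1 FPKM or more in all columns, and their sums were 3157 and 3163 FPKM in the control siRNA columns and 2915 and 2835 FPKM in the GR siRNA columns. Pecam1, an adhesion molecule of endothelium, ranged from 275 to 282 FPKM, while the tight junction gene Cldn5 was 493 and 525 against 368 and 332 FPKM, and the guidance receptor gene Robo4 had differences of 0.42 and 0.30 on the log2 scale. Of the markers of other cells, 10 of 14 for fibroblasts and mural cells, 8 of 12 for lung epithelium and 9 of 11 for leukocytes were under 1 FPKM in every column. The fibroblast and mural markers summed to 17.2 and 15.6 FPKM in the control siRNA columns and to 22.7 and 20.4 FPKM in the GR siRNA columns. The epithelial sums were 15.1 and 14.4 against 17.6 and 18.0 FPKM, and the leukocyte sums, nearly all from the macrophage gene Cd68, were 178 and 163 against 196 and 221 FPKM. Ptprc, the pan-leukocyte marker, was listed at 0 in all columns and Epcam at no more than 0.0116 FPKM. The fibroblast gene Dcn was 0.387 and 0.297 FPKM with control siRNA and 1.99 and 2.73 FPKM with GR siRNA. Of the 4 fibroblast and mural markers that reached 1 FPKM, 3 were higher with GR siRNA in each DEX state and 1 was lower. The part of endothelial state or of other cells in the differences below was not tested. The number of reads is unknown, and relative to GR siRNA the depth estimated from the step of single fragments was 0.671 for control siRNA, 0.962 for control siRNA with DEX and 0.811 for GR siRNA with DEX.

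The 40 genes were well expressed. With control siRNA their median was 36.6 FPKM, from 2.50 for Cdkn1c to 299 for Cdk4, against a median of 15.2 over the 11095 genes at 1 FPKM or more. Sequence is shared with other annotated genes for some of them: at least 10% of the 31-base words of 13 genes also occur elsewhere in the annotated transcripts. This share was 79.6% for Fen1, 66.2% for Gins2, 33.4% for Mcm7, 27.2% for Cdkn1c, 24.2% for Uhrf1, 23.3% for Pcna, 22.3% for Ccnd1, 19.5% for Cdk4, 15.6% for Ccne2, 13.2% for Rb1, 12.8% for Rrm2, 11.4% for Tyms and 10.5% for Rfc4. The FPKM of these 13 depend on how shared reads were divided and are uncertain to that extent.

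**Figure D1:**
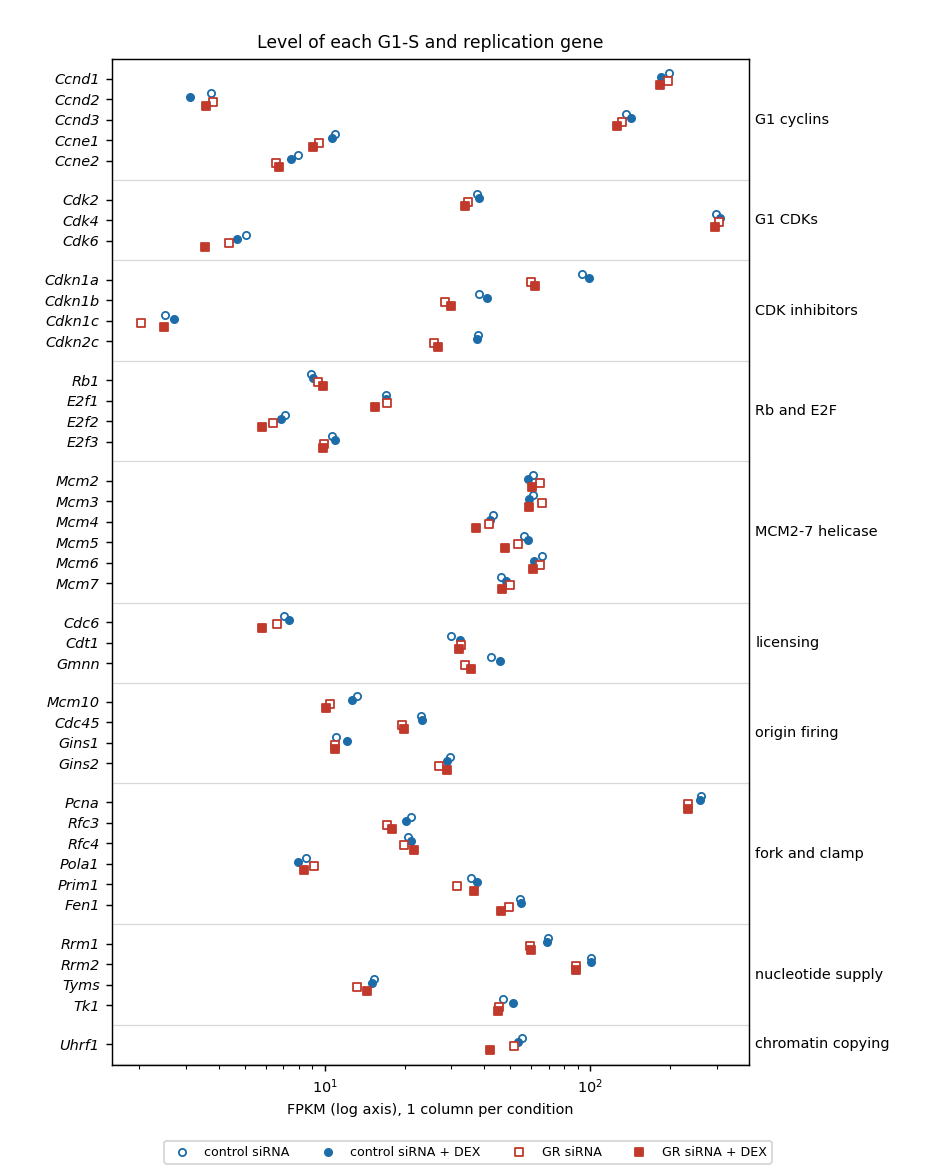
FPKM (log axis) of the 40 genes in the 4 columns, ordered by role; circles are control siRNA, squares are GR siRNA, and filled symbols are with DEX. The squares of Cdkn1a, Cdkn1b and Cdkn2c lie left of the circles, while the 4 symbols of Ccnd1 and Cdk4 lie close together.

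GR siRNA was compared with control siRNA to read the G1-S genes in cells with less GR mRNA. The 4 CDK inhibitors among the 40 were lower with GR siRNA, with the lowest medians among the roles. The medians of the other roles lay between −0.34, for Uhrf1 alone, and 0.03. Most of the 40 genes were lower by small amounts. On the scale of log2(FPKM + 1), which understates differences of low genes, the median difference of the 40 was −0.11 without DEX and −0.16 with DEX in both arms. The median over all genes tested (those reaching 1 FPKM in either column) was −0.01 in both states. Upper quartile scaling, which divides each column by the 75th percentile of its values above 0, moved the median of the 40 without DEX to −0.03 and that of all genes to 0.05.

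Lower by at least 20% on the scale of FPKM + 1 were 3 of the 40 without DEX, against 8.86% of the 11325 genes tested, and 5 of the 40 with DEX, against 8.69% of 11344. The 3 were Cdkn1a, Cdkn1b and Cdkn2c, which were also among the 5, with Gmnn and Uhrf1 as the others. These shares of 7.50% and 12.5% lie near the background. Higher by at least 25%, the same fold upward, were 0 of the 40 in both states, against 7.70% and 7.78% of all genes. With a pseudocount of 0.1 in place of 1 the counts of lower genes were 5, adding Gmnn and Mcm10, and 8, adding Mcm10, Cdk6 and Cdc6, against 11.0% and 10.9% of all genes.

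Counted without a threshold, 31 of the 40 were lower without DEX and 33 with DEX, against 52.8% and 51.8% of all genes tested. Under upper quartile scaling the split without DEX was 24 lower and 16 higher and that of all genes was 38.8% lower. With DEX it was 35 lower and 5 higher under that scaling, against 54.8% of all genes lower. Both GR siRNA columns lay below both control siRNA columns for 26 of the 40 (65.0%), against 36.6% of all 11445 genes. Both lay above for 1 gene, Rb1, against 32.3%. The groups overlapped for the remaining 13. Under upper quartile scaling the counts were 21 below and 4 above, and the matching shares of all genes are not given here. The difference between siRNAs without DEX and that with DEX come from separate columns, and had a Pearson correlation of 0.796 and a Spearman correlation of 0.682 over the 40 genes, against 0.286 and 0.744 over 11445 genes. These describe genes of 1 table and not replicates. In bulk RNA, fewer cycling cells and less RNA of these genes per cell cannot be told apart.

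The D-type cyclins sense growth signals in G1. Ccnd1 stood at 199 FPKM with control siRNA, 185 with DEX added, 196 with GR siRNA and 184 with GR siRNA and DEX. Its 4 values overlapped between siRNA groups, with differences of −0.02 and −0.01. Ccnd3 stood at 137, 142, 132 and 126 FPKM in the same order, with both GR siRNA columns the lowest. Ccnd2 was scarce at 3.75, 3.11, 3.80 and 3.57 FPKM. Of the summed FPKM of D-type cyclins with control siRNA, 58.6% came from Ccnd1, 40.3% from Ccnd3 and 1.10% from Ccnd2. With GR siRNA these shares were 59.0%, 39.9% and 1.14%, so the makeup of the family was close to that with control siRNA.

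Cyclin E drives the later step through CDK2. Ccne1 was 10.9 and 10.7 FPKM in the control siRNA columns and 9.49 and 9.07 FPKM in the GR siRNA columns, differences of −0.18 and −0.22. Ccne2 was 7.94 and 7.45 against 6.54 and 6.73 FPKM, differences of −0.25 and −0.13. Both E-type cyclins were lower in both GR siRNA columns, by less than 20%. The kinase gene Cdk2 did the same, at 37.6 and 38.0 against 34.7 and 33.7 FPKM. Cdk4, at 299, 308, 305 and 294 FPKM, overlapped between groups.

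Cdk6, the other partner of D-type cyclins, was 5.06 FPKM with control siRNA, 4.68 with DEX, 4.36 with GR siRNA and 3.55 with GR siRNA and DEX. Its lowest value was in the column with both treatments, and the differences between siRNAs were −0.18 without DEX and −0.32 with DEX. The ratio of Cdk4 to Cdk6 FPKM ran from 59.2 with control siRNA to 82.8 with GR siRNA and DEX.

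Of the 40 genes, the CDK inhibitor genes Cdkn1a, Cdkn2c and Cdkn1b differed most between siRNAs, while Cdkn1c differed less. INK4 genes outside the 40 are given further on. Cdkn1a encodes p21, which binds cyclin-CDK complexes and is a target of p53 and of many stress signals (mm10 chromosome 17, 29090976 to 29100727). It stood at 92.8 FPKM with control siRNA, 99.2 with control siRNA and DEX, 60.0 with GR siRNA and 61.8 with GR siRNA and DEX. The groups did not overlap, and the differences were −0.62 without DEX and −0.67 with DEX. Cdkn1a was the single gene of the 40 that was at least 1.5-fold lower, in both states, against 2.54% of all genes without DEX and 2.62% with DEX, a share near that of the 40.

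Cdkn2c encodes the INK4 protein p18, which blocks CDK4 and CDK6 (chromosome 4, 109660876 to 109667189). Its values were 37.9 and 37.6 FPKM with control siRNA and 25.9 and 26.8 FPKM with GR siRNA, differences of −0.53 and −0.47. Cdkn1b, encoding p27, the inhibitor that accumulates in resting cells (chromosome 6, 134920401 to 134925513), was 38.2 and 40.8 against 28.4 and 29.9 FPKM, differences of −0.41 and −0.43. For both genes the 2 GR siRNA columns lay apart from the control siRNA columns, and the values with and without DEX lay close together.

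Cdkn1c, encoding p57, is a known glucocorticoid-responsive gene in other cells. It was at the bottom of the range here, at 2.50 and 2.70 FPKM with control siRNA and 2.04 and 2.48 FPKM with GR siRNA. Its differences were −0.20 and −0.09, and 27.2% of its 31-base words are shared with other genes. The summed FPKM of the 4 inhibitors was 171 and 180.4 in the control siRNA columns and 116 and 121 in the GR siRNA columns. Their median difference was −0.47 without DEX and −0.45 with DEX, and under upper quartile scaling it was −0.40 and −0.47.

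**Figure D2:**
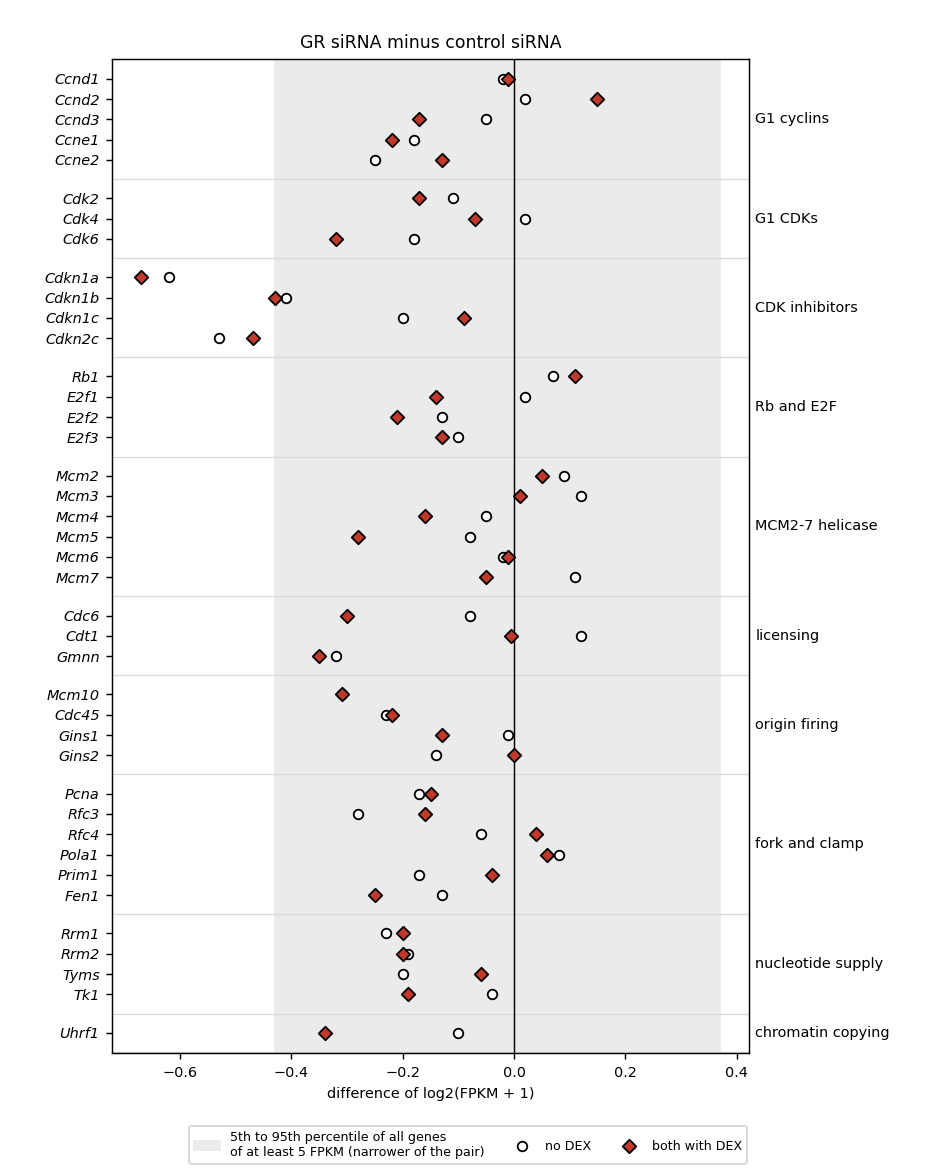
Difference of log2(FPKM + 1) between GR siRNA and control siRNA for the 40 genes, without DEX (open circles) and with DEX in both arms (diamonds); the grey band spans the 5th to 95th percentile of genes of at least 5 FPKM, in the state with the narrower span. Cdkn1a and Cdkn2c lie at −0.62 and −0.53 without DEX, left of the band's lower edge near −0.43, while most other genes lie between −0.35 and 0.12.

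Rb1, the gatekeeper that binds E2F, was the single gene with both GR siRNA columns above both control siRNA columns. It stood at 8.89 and 9.02 FPKM with control siRNA and 9.41 and 9.83 FPKM with GR siRNA, differences of 0.07 and 0.11, which lie well inside the range of all genes, and 13.2% of its 31-base words are shared. The activating factor E2f1 was 17.0, 17.1, 17.2 and 15.5 FPKM across the 4 columns, so only the column with both treatments stood apart. E2f2 was 7.10 and 6.88 against 6.39 and 5.82 FPKM, and E2f3 was 10.7 and 10.9 against 9.97 and 9.84 FPKM. Both were lower in both GR siRNA columns, with differences from −0.10 to −0.21.

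The 6 genes from Mcm2 to Mcm7 encode the ring of the replicative helicase. Their levels with control siRNA lay within 1.53-fold of each other, from 43.1 FPKM for Mcm4 to 66.0 for Mcm6, and their sum was 333, 326, 340.2 and 312 FPKM across the 4 columns. Without DEX 3 were lower and 3 higher with GR siRNA, with a median of 0.03, and under upper quartile scaling 1 was lower and 5 were higher, with a median of 0.11. With DEX in both arms 4 were lower and 2 higher, with a median of −0.03. Mcm2 was 60.8, 58.2, 64.7 and 60.3 FPKM, Mcm3 was 60.7, 58.8, 66.1 and 59.1, and Mcm7 was 46.1, 48.2, 49.8 and 46.5. For these 3 genes the highest value was that of GR siRNA without DEX. Mcm5 was 56.2 and 58.1 FPKM with control siRNA and 53.3 and 47.7 FPKM with GR siRNA, and its difference with DEX, −0.28, was the lowest of the ring. Mcm4, at 43.1 and 41.8 against 41.5 and 37.3 FPKM, also lay lower in both GR siRNA columns, and Mcm6, at 66.0 and 61.3 against 64.9 and 60.7 FPKM, overlapped.

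Among the licensing genes, Gmnn and Cdc6 were lower in both GR siRNA columns. Gmnn encodes geminin, the inhibitor of Cdt1 (chromosome 13, 24751845 to 24761923), and stood at 42.4 FPKM with control siRNA, 45.6 with DEX, 33.9 with GR siRNA and 35.7 with GR siRNA and DEX, differences of −0.32 and −0.35. The groups did not overlap. Cdt1 itself was 30.0, 32.3, 32.6 and 32.2 FPKM, with differences of 0.12 and −0.0046. The ratio of Cdt1 to Gmnn FPKM was therefore 0.707 and 0.709 in the control siRNA columns and 0.960 and 0.903 in the GR siRNA columns. Cdc6, the ATPase that loads the helicase with Cdt1, was 7.05, 7.37, 6.60 and 5.82 FPKM, with differences of −0.08 without DEX and −0.30 with DEX.

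Of the origin firing genes, Mcm10, which helps to activate the loaded helicase (chromosome 2, 4989714 to 5012791), was 13.2 and 12.7 FPKM with control siRNA and 10.5 and 10.1 FPKM with GR siRNA. Its difference was −0.31 in both DEX states. Cdc45, a subunit of the active helicase, was 23.0 and 23.3 against 19.6 and 19.9 FPKM, differences of −0.23 and −0.22. For both genes the GR siRNA columns lay below the control siRNA columns by nearly the same amount with and without DEX. Gins1 was 11.0, 12.1, 10.9 and 10.9 FPKM, and Gins2, of uncertain level for its shared sequence, was 29.7, 28.9, 26.9 and 28.9 FPKM. Their differences between siRNAs ran from −0.14 to 0.0007.

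At the fork, Pcna, the sliding clamp that holds the polymerases on DNA, was 262 and 259 FPKM with control siRNA and 233 in both GR siRNA columns, differences of −0.17 and −0.15. The clamp loader gene Rfc3 was 21.1 and 20.2 against 17.2 and 18.0 FPKM, while its partner Rfc4 was 20.7 and 21.2 against 19.9 and 21.8 FPKM. Rfc3 lay below the control siRNA columns in both DEX states and Rfc4 overlapped. Fen1, the flap nuclease that matures Okazaki fragments, was 54.4 and 55.0 against 49.7 and 46.0 FPKM, with 79.6% of its 31-base words shared. Prim1, the catalytic primase subunit, and Pola1, the catalytic subunit of DNA polymerase alpha, overlapped between groups. Prim1 was 35.7, 37.6, 31.5 and 36.5 FPKM, and Pola1 was 8.54, 7.95, 9.09 and 8.33 FPKM.

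All 4 nucleotide supply genes were lower in both GR siRNA columns, against 65.0% of the 40 and 36.6% of all genes. Rrm1 and Rrm2 encode the large and small subunits of ribonucleotide reductase, which makes deoxynucleotides. Rrm1 was 69.6 and 69.0 FPKM with control siRNA and 59.4 and 60.0 with GR siRNA, and Rrm2 was 101 in both control siRNA columns and 88.6 and 88.1 with GR siRNA. The subunits kept nearly the same ratio, between 0.671 and 0.687 in all columns. Tyms, the thymidylate synthase gene, was 15.4 and 15.1 against 13.2 and 14.5 FPKM. Tk1, the thymidine kinase gene, was 46.8 and 51.2 against 45.5 and 44.9 FPKM. The median difference of the 4 was −0.20 without DEX and −0.19 with DEX, and for Tk1 without DEX the sign changed under upper quartile scaling, from −0.04 to 0.03.

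Uhrf1 brings the maintenance DNA methyltransferase to newly copied DNA (chromosome 17, 56303321 to 56323486). It stood at 55.6 FPKM with control siRNA, 53.5 with control siRNA and DEX, 51.7 with GR siRNA and 42.0 with GR siRNA and DEX. The column with both treatments stood apart from the other 3, and the differences between siRNAs were −0.10 without DEX and −0.34 with DEX.

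The comparison of DEX with no DEX within each siRNA arm reads these genes after 18 h of the glucocorticoid. In both arms 0 of the 40 were lower by 20% or higher by 25% on the scale of FPKM + 1. Over all genes tested, 0.882% were at least that much lower and 1.02% that much higher in control siRNA cells, and 0.973% lower and 1.26% higher in GR siRNA cells. In control siRNA cells 20 of the 40 were lower, against 52.6% of all genes, with a median of 0.01 against −0.01. Under upper quartile scaling 5 of the 40 and 15.1% of all genes were lower there. In GR siRNA cells 25 of the 40 were lower, against 51.9% of all genes, with a median of −0.03 against −0.0047.

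Both DEX columns lay below both columns without DEX for 6 of the 40, against 8.30% of all genes. These were Ccnd1, Ccnd2, Mcm2, Mcm3, Mcm6 and Pola1. Both lay above for 2, Rfc4 and Prim1, against 7.79%. Under upper quartile scaling the counts were 2 and 5. That scaling also shifted all genes, with 15.1% lower with DEX in control siRNA cells. The shares of all genes that match these counts are not given here. The CDK inhibitor genes differed little with DEX: Cdkn1a had a difference of 0.10 in control siRNA cells and 0.04 in GR siRNA cells, and Cdkn1b 0.09 and 0.07. Cdkn1c, on its low level, had 0.08 and 0.20.

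In GR siRNA cells all 6 of Mcm2 to Mcm7 were lower with DEX, against 51.9% of all genes tested. Their differences ran from −0.16 to −0.09, with a median of −0.13. Under upper quartile scaling, where 49.7% of all genes were lower, all 6 stayed lower with a median of −0.12. In control siRNA cells their differences ran from −0.10 to 0.06 with a median of −0.04, and under upper quartile scaling the median was 0.05. Genes of at least 5 FPKM spanned −0.16 to 0.19 between their 5th and 95th percentile in GR siRNA cells. Mcm3 and Mcm5, at −0.16, stood at the lower edge of that span, and the other helicase genes lay within it. Uhrf1, at −0.30, lay below it, and Prim1, at 0.20, lay above it. Cdk6, at −0.24, was under 5 FPKM in that arm and is not among the genes of the span. The interaction, the difference of DEX effects between GR siRNA and control siRNA cells, was −0.24 for Uhrf1, −0.21 for Cdc6, −0.20 for Mcm5 and 0.14, the highest, for Ccnd2, Gins2 and Tyms. Its median was −0.03 over the 40 genes against 0.0018 over all, and −0.12 against −0.08 under upper quartile scaling. It was not tested, since each condition has 1 column.

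**Figure D3:**
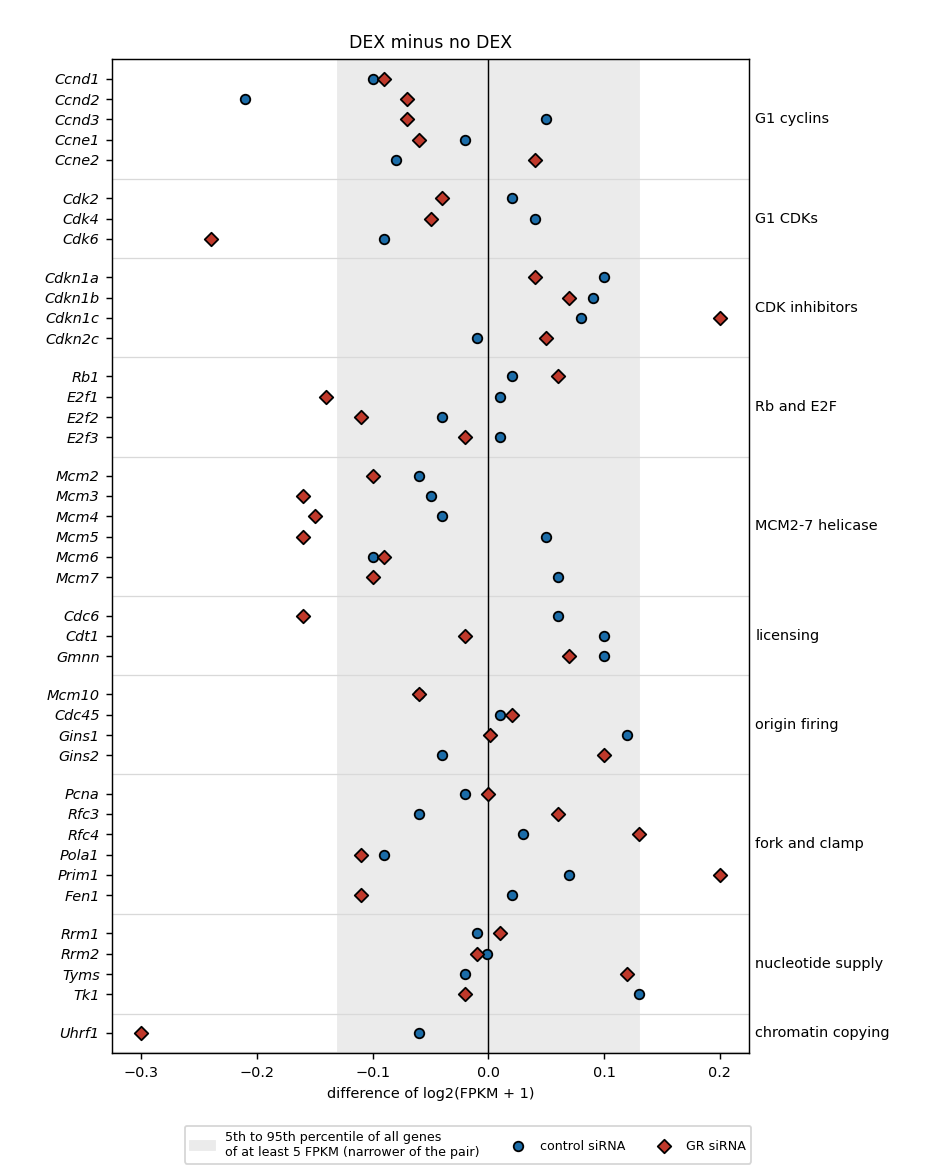
Difference of log2(FPKM + 1) between DEX and no DEX for the 40 genes, in control siRNA cells (circles) and in GR siRNA cells (diamonds); the grey band spans the 5th to 95th percentile of genes of at least 5 FPKM in the arm with the narrower span. The 6 helicase diamonds lie left of 0, between −0.16 and −0.09, and the Uhrf1 diamond lies farthest left, at −0.30. Over all genes tested, 51.9% were lower with DEX in GR siRNA cells.

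The 12 genes with an E2F word in a promoter, 7 of them shown above, had median differences between siRNAs of −0.08 without DEX and −0.14 with DEX. The 19 with a promoter and no E2F word had −0.18 and −0.20, and they include the 3 CDK inhibitor genes with the largest differences. With DEX in GR siRNA cells, 11 of the 12 genes with an E2F word were lower, against 51.9% of all genes tested. Their median was −0.10, and the exception was Rfc3 at 0.06. Of the 19 without a word 11 were lower (57.9%), and their median was −0.01. Over all 413 tested genes with an E2F word, 62.0% were lower in that comparison, with a median of −0.02. The helicase genes account for 4 of the 12, so the sets overlap, and the difference between the sets was not tested.

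Genes near the 40 in the cell cycle give the setting. Of 45 other replication genes, 32 were lower without DEX and 34 with DEX, against 52.8% and 51.8% of all genes, with medians of −0.08 and −0.10. Lower by at least 20% were 2 in each state (4.44%), against 8.86% and 8.69% of all genes. The lowest were Asf1b, a histone chaperone (30.8 and 30.6 against 23.3 and 24.1 FPKM), Dbf4, the activator of the Cdc7 kinase (44.4 and 42.5 against 35.2 and 33.3 FPKM), and Topbp1, which helps origins to fire (35.9 and 34.9 against 28.8 and 28.1 FPKM). The highest were Pold2, a subunit of DNA polymerase delta (31.6 and 32.0 against 35.7 and 35.8 FPKM), and Pole, the catalytic subunit of polymerase epsilon (7.45 and 6.83 against 8.42 and 7.65 FPKM). The replication genes outside the 40 thus held values on both sides. Both GR siRNA columns lay below both control siRNA columns for 27 of the 45 (60.0%), against 36.6% of all genes. Both lay above for 8 (17.8%), against 32.3%.

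Of 23 other G1-S regulators, 20 were lower without DEX and 19 with DEX, against 52.8% and 51.8% of all genes, with medians of −0.12 and −0.14. E2f8, an atypical repressor of E2F targets, was 13.1 and 11.7 FPKM with control siRNA and 8.75 and 8.21 FPKM with GR siRNA. Ccna2 was also low, at 108 and 109 against 77.2 and 80.2 FPKM. Cdkn2d, encoding the INK4 inhibitor p19, was 17.8 and 19.7 against 14.4 and 13.7 FPKM. The other INK4 genes of this list did not follow it: Cdkn2a was 98.7 and 109 against 101 and 107 FPKM, and Cdkn2b was 7.03 and 6.14 against 6.09 and 6.59 FPKM. Cdkn2a and Cdkn2b were chosen for naming after their values were seen. E2f6, a repressor that binds without Rb, was the highest of this list, with differences of 0.30 without DEX and 0.44 with DEX.

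Because Cdkn1a is a target of p53, 14 other p53 targets were read beside it. Their median difference was −0.10 without DEX and −0.15 with DEX. In each state 9 were lower (64.3%) and 5 higher, against 52.8% and 51.8% of all genes lower. Lower by at least 20% were 5 of the 14 without DEX (35.7%) and 6 with DEX (42.9%), against 8.86% and 8.69% of all genes, and higher by at least 25% were 0 and 1. Trp53inp1, a stress protein gene, was 2.35 and 2.43 FPKM with control siRNA and 0.771 and 0.805 with GR siRNA. Ccng1, encoding cyclin G1, was 26.0 and 25.5 against 16.2 and 17.8 FPKM. The pro-apoptotic gene Bbc3 stood on the other side, at 5.33 and 5.26 against 6.85 and 7.15 FPKM. Trp53inp1 and Ccng1 hold in their 3′ regions 1 of the 7-letter words described further on. In each state, most genes of this list that were lower by at least 20% hold such a word. All genes of the list with a word were lower in both states, and those without one lay on both sides. Ei24, another low gene of this list with differences of −0.45 and −0.64, holds none. The part of these words in the p53 list was not tested.

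The 32 genes of mitosis had larger differences than the S-phase genes. All 32 were lower without DEX and 31 with DEX, against 52.8% and 51.8% of all genes. Their medians were −0.34 and −0.28, against −0.11 and −0.16 for the 40 genes. Under upper quartile scaling 30 and 31 of the 32 were lower, against 38.8% and 54.8% of all genes. Lower by at least 20% were 18 without DEX (56.2%) and 11 with DEX (34.4%), against 8.86% and 8.69% of all genes. Mad2l1, a spindle checkpoint gene, was 49.3 and 51.3 against 34.4 and 36.8 FPKM, and the kinetochore gene Ndc80 was 24.5 and 24.2 against 17.0 and 17.6 FPKM. The word TTTGAA, which is the core of the element known to time late cell cycle genes, stood in 22 of 29 promoters of the mitosis list (75.9%), 5 of 39 of the 40 genes (12.8%) and 17.9% of all promoters, on either strand. The E2F words stood in 1 of the 29. All tested genes with TTTGAA in a promoter had a median difference between siRNAs of −0.02 in both states, and 55.2% and 53.3% were lower. The median over all genes tested was −0.01. The difference between the lists was not tested.

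**Figure D4:**
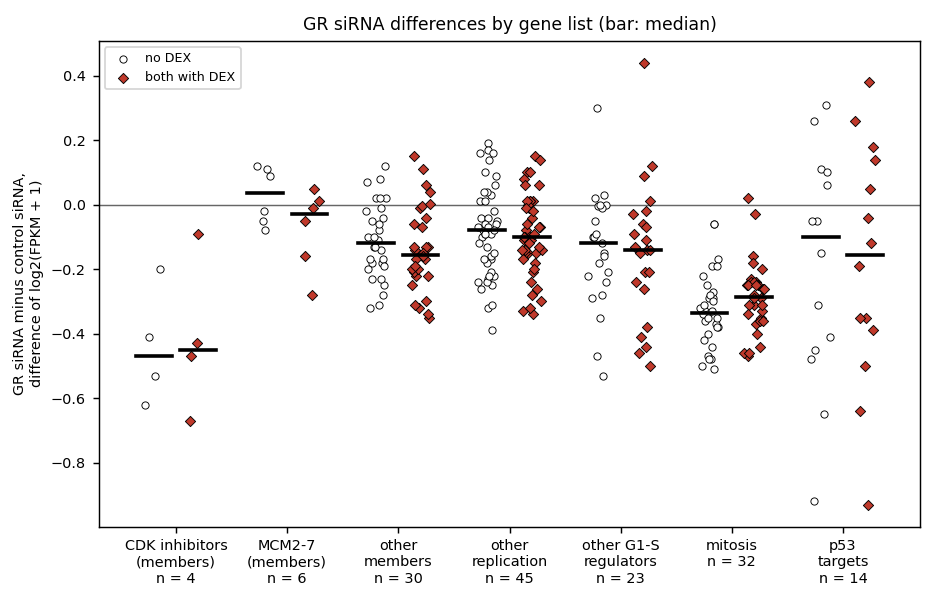
Difference of log2(FPKM + 1) between GR siRNA and control siRNA for each gene of 4 CDK inhibitors, 6 helicase genes, the other 30 of the 40 genes and 4 other lists; open circles are without DEX, diamonds with DEX in both arms, and bars mark medians. The CDK inhibitors have medians of −0.47 and −0.45 and the mitosis list −0.34 and −0.28, while the helicase genes lie around 0.

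Genes with either of a pair of 7-letter words in the 3′ untranslated region had lower medians with GR siRNA over the whole table, and the words are given for that reason. The words were found by an earlier scan of this same table. The contrast over all genes below therefore follows from how they were chosen and is not separate evidence. The words TTCTGAA and TCTGAAA, searched on the transcript strand and able to overlap as TTCTGAAA, stood in the longest annotated 3′ region of 9 of the 40 genes: Ccnd1, Cdk6, Cdkn1b, Cdkn1c, E2f1, E2f2, Mcm4, Mcm10 and Tyms. Windows of 30 bases around the first word are printed for the 3 of the 9 with the lowest mean difference, with the word in capitals.
Cdkn1b: tcacttggaggTTCTGAAgattctgttata
Mcm10: actcctgtggcTCTGAAAagcaagagattg
Cdk6: agactcacaccTCTGAAAcccggttttcac
Over all genes tested, the 3140 with a word had a median of −0.06 without DEX and 13.4% were lower by at least 20%, against a median of 0.01 and 6.30% of the 7147 without one. With DEX the medians were −0.05 and 0.01. The 9 genes with a word had medians of −0.18 and −0.16, and the 31 without one −0.10 and −0.15. Cdkn1a, Cdkn2c, Gmnn and Uhrf1 are among the 31 without a word. The part of these words in the differences was not tested.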

How the data were processed

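The authors deposited 1 gene table of FPKM with 1 column for each of the 4 conditions. Per the submitters' processing notes, reads were aligned with TopHat2 and FPKM estimated with Cuffdiff on mm10; no source used here gives versions, annotation, strand setting or how replicates entered. The samples' description labels end in R1, and a column may be 1 replicate, a mean or a pooled library. Each condition was taken as 1 sample, and no test was made. An additive fit over the 4 columns, with DEX state as a block and the interaction as error, was not made.

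Differences of log2(FPKM + 1) were taken for genes reaching 1 FPKM in either column, with Python 3.11.15, numpy 2.4.6 and pandas 2.3.3, and counted where FPKM + 1 was at least 20% lower or 25% higher (the same fold), and at 1.5-fold. The counting was tested on simulated data. Coordinates, shared 31-base words and 3′ regions come from GENCODE M21 on mm10, and promoters from RefSeq. Alternatives changed the pseudocount, the filter, the scaling and the genes kept.

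The 40 genes and the other lists were chosen with earlier results of these data known, and the 7-letter words came from an earlier scan of this table. All 40 are named. From each other list, up to 3 genes on each side with the largest mean of both differences between siRNAs could be named, besides Nr3c1 and any marker.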

Additional observations from a re-analysis of the deposited data

How the results depend on the processing

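No median over the 40 genes changed sign under another pseudocount, filter, scaling or choice of genes. With a pseudocount of 0.1, genes at least 20% lower with GR siRNA numbered 5 without DEX and 8 with DEX, against 11.0% and 10.9% of all genes. Upper quartile scaling moved the median between siRNAs without DEX to −0.03, that of DEX in control siRNA cells to 0.10 and that of the interaction to −0.12, while the medians of all genes went to 0.05, 0.08 and −0.08. Under it both GR siRNA columns lay below both control siRNA columns for 21 genes and above for 4, and both DEX columns lay below for 2 and above for 5. With long, unshared genes only (27 of the 40), both GR siRNA columns lay below for 19 genes and above for 0, and both DEX columns above for 1. The shares of all genes that match these counts are not given here. Median of ratios scaling, no filter and a filter of 5 FPKM moved no median by more than 0.05 and no count by more than 1.5 times. Neither did leaving out the 9 genes with the 7-letter words, an alternative chosen after seeing the data. Why the values moved was not tested. No analysis paired by replicate was possible because each condition has 1 column and the 4 conditions share a single replicate number. For the same reason no replicate could be left out. Depth is unknown, and low genes such as Cdkn1c and Ccnd2 are the least precise.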
